A study of Mus musculus with 15 samples.

Results

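The 39 interferon-stimulated genes described here were taken from a list of symbols. Each of the 39 matched 1 gene identifier among the 55357 in the count files, and all 39 passed the filter on low counts that left 15770 genes for testing. Total RNA of mouse cornea was sequenced in 15 libraries from animals of 2 genotypes and 2 ages. OPA1+/- corneas gave 4 libraries at 3 months and 4 at 6 months, and OPA1+/+ corneas gave 4 libraries at 3 months and 3 at 6 months. OPA1 is a dynamin-like GTPase of the inner mitochondrial membrane, and the label OPA1+/- denotes animals heterozygous for it. The labels give no allele, strain, sex or litter. They do not say whether each library came from a separate animal, so the p-values below measure the spread between these libraries. Levels of the listed genes were compared between genotypes, between ages and between the libraries of a group.

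Interferons are secreted signals of infection. Type I and type III interferons act through JAK1 and TYK2 to assemble a factor that includes STAT2 and IRF9 and binds interferon-stimulated response elements in promoters, whereas the response to the type II interferon works through gamma-activated sites. The induced genes encode sensors of viral nucleic acid, effectors that block viral RNA and protein production, and the machinery of antigen presentation. Type III interferons act mainly on epithelia, the tissue that covers the cornea.

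Library totals ran between 11673240 and 18194946 counts. Opa1 averaged 50.95 ± 5.07 CPM (counts scaled to a common library size, adjusted by the trimmed mean of M values) in 4 OPA1+/- and 67.8 ± 2.34 CPM in 4 OPA1+/+ corneas of 3 months (SD). Animals of 6 months gave 47.9 ± 1.06 CPM with the OPA1+/- genotype (SD over 4 libraries), against 69.3 ± 3.59 CPM with the OPA1+/+ genotype (3 libraries). It was lower in OPA1+/- at both ages (log2 fold change -0.41 ± 0.06 SE, adjusted p = 0.0193, and -0.53 ± 0.06, adjusted p = 0.000623, edgeR quasi-likelihood test with Benjamini-Hochberg adjustment). The tissue label matched its markers: Krt12, the keratin of corneal epithelium, averaged 28618 CPM, and the summed corneal epithelium markers lay between 55376 and 67355 CPM in every library. Summed conjunctiva markers were lower and less even, between 367 and 752 CPM. Of these, Krt13, Krt4, Krt19 and Muc5ac averaged 444, 48.8, 40.4 and 0.0877 CPM. Summed retina markers reached 134.9 CPM in OPA1+/- replicate 4 at 3 months and 128 CPM in OPA1+/+ replicate 1 at 6 months, against 9.64 to 20.8 CPM in the other 13 libraries, and the lens markers reached 84.8 CPM in the first of these. In whole-tissue libraries, fewer cells of a type and less RNA per cell cannot be told apart.

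Compared per gene length, the interferon-stimulated genes were well above the typical corneal gene. Their median level was 86.4 TPM (counts divided by gene length and scaled to a common total), against 15.2 TPM for the 15770 tested genes, and 38 of the 39 lay above that value. Isg15, a ubiquitin-like protein that is joined to other proteins, was at the top with 643 TPM averaged over the 15 libraries, followed by Ifit3 at 529 TPM and Ifit1 at 401 TPM, which bind viral RNA. Oasl2 and Oas2 of the oligoadenylate synthetase family averaged 259 and 233 TPM, and Irf7, the transcription factor that amplifies interferon production, averaged 222 TPM. The lowest was Iigp1, an immunity-related GTPase, at 4.91 TPM. Psmb9, a subunit of the immunoproteasome, and Ifit2 were next lowest at 28.5 and 29.0 TPM.

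**Figure D1:**
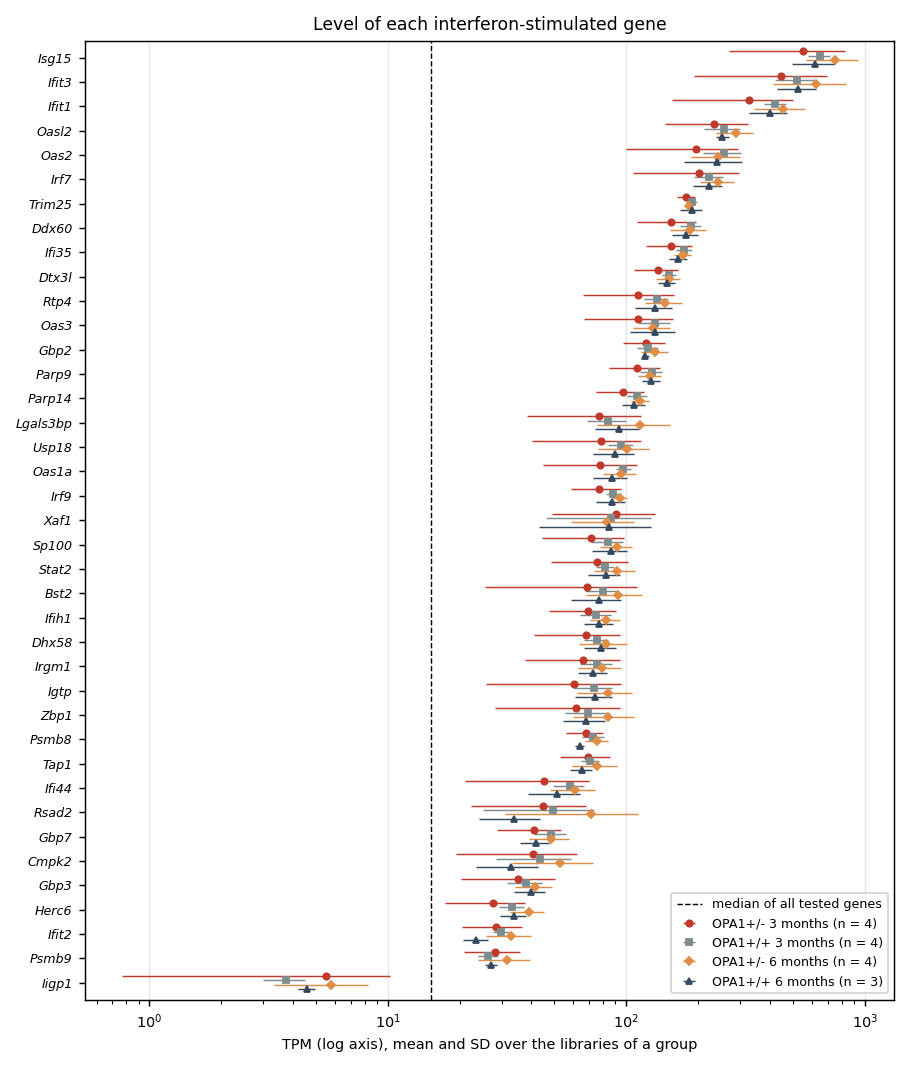
Level of each of the 39 genes in TPM on a log axis, as the mean and SD over the libraries of each group, with the median of all tested genes as a dashed line. Isg15 stood at the top with 643 TPM over all libraries, Iigp1 alone lay below the dashed line, and the SD was largest in OPA1+/- at 3 months for most genes.

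The promoters of these genes held the letters of the 2 elements named above more often than other promoters. RefSeq windows of 300 bases (250 before and 50 after the start site, GRCm38.p6) were found for 31 of the 39 genes. The core of the response element, GAAA followed by any 2 bases and a second GAAA, read on both strands, was present in 15 of the 31 (48.4%), against 3.99% of the 27025 genes in the table. The gamma-activated site TTCNNNGAA, also read on both strands, was present in 7 of 31 (22.6%), against 9.55% of all genes. Matches of the response element can overlap each other, as in Isg15, and 13 of the 31 genes held neither motif. A match describes letters and is not a measured binding site. The 250 bases before the start site are shown for 8 genes chosen to span the patterns described below: 3 abundant effectors with response elements only (Isg15, Ifit1 and Ifit3), 2 genes with both motifs (Oas1a and Gbp7), an antigen-processing gene with a gamma-activated site only (Psmb8), and 2 genes whose profile was less like the rest of the list (Rsad2 and Xaf1). Capitals mark matches to either motif, on the strand of the gene or as the reverse complement, and each sequence runs 5′ to 3′ on the strand of its gene.
Isg15: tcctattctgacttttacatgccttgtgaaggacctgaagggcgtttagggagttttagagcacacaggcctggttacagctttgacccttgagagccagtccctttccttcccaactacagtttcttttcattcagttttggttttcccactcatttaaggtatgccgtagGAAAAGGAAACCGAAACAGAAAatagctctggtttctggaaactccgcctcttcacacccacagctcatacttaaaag
Ifit1: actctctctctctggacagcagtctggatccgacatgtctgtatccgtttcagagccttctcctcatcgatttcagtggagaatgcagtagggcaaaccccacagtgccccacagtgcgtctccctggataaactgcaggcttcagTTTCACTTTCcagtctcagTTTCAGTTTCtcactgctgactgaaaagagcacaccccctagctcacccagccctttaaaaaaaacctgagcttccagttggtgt
Ifit3: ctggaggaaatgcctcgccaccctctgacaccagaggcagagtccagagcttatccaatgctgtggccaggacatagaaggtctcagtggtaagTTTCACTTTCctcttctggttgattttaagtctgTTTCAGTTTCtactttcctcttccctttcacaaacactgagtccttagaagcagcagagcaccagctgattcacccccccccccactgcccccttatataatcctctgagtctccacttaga
Oas1a: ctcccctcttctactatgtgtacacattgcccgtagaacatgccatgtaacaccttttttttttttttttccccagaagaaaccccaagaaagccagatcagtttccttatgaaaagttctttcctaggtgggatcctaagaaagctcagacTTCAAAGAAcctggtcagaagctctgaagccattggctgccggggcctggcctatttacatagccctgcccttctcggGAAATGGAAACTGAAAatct
Gbp7: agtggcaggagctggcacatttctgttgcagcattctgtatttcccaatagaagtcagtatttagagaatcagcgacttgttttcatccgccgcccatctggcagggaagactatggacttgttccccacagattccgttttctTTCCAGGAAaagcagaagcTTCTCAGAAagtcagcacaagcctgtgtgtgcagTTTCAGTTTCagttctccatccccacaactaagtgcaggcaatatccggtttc
Psmb8: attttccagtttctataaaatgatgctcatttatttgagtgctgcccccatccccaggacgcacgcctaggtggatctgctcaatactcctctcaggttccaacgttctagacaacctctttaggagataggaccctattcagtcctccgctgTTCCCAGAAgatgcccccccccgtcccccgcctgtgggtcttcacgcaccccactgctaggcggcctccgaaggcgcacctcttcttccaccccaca
Rsad2: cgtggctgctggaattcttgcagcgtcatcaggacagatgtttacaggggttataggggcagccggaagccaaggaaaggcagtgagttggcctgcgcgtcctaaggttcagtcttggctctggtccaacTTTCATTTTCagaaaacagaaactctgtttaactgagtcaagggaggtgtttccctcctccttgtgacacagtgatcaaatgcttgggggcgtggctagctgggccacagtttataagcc
Xaf1: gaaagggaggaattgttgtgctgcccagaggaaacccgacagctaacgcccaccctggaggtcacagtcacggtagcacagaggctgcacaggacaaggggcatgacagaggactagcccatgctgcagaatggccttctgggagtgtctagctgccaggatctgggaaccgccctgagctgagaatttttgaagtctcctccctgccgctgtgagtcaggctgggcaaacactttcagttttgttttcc
Isg15 (minus strand, chr4:156200819-156201068) held 3 overlapping response element cores, whose first bases lay at -78, -72 and -66 from the start site. Ifit1 (plus strand, chr19:34640639-34640888) held cores at -104 and -85, and Ifit3 (plus strand, chr19:34583279-34583528) at -156 and -122, all as the reverse complement. Oas1a (minus strand, chr5:120907526-120907775) held overlapping cores at -20 and -14 beside a gamma-activated site at -98. Gbp7 (plus strand, chr3:142530086-142530335) held a core at -53 and gamma-activated sites at -106 and -87. Psmb8 (plus strand, chr17:34197945-34198194) held a gamma-activated site at -97, Rsad2 (minus strand, chr12:26456453-26456702) a core at -120, and Xaf1 (plus strand, chr11:72301379-72301628) no match, which says only that these letters are not in this window.

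Several of the genes are neighbours. In the coordinates of the count files (GENCODE vM28), Ifit2, Ifit3 and Ifit1 lie in this order on the plus strand of chromosome 19 between 34528094 and 34627409. Gbp7, Gbp3 and Gbp2 lie on chromosome 3 between 142236103 and 142343769, and Oas2, Oas3 and Oas1a on the minus strand of chromosome 5 between 120868398 and 121045584. Psmb9, Tap1 and Psmb8 lie on chromosome 17 between 34400961 and 34420428. Rsad2 and Cmpk2 lie near each other on chromosome 12, between 26492745 and 26529836, and point away from each other.

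The feature shared by nearly all of these genes was a common order of high and low libraries, widest in OPA1+/- corneas at 3 months. There, replicates 1 and 3 were the 2 lowest of the 4 libraries for 39 of 39 genes, an order shown by 16% of the 15770 tested genes. This pair, like the highest and lowest libraries named below, was picked as the commonest among the 39 genes themselves. The counts therefore describe the order and do not test it. The summed level of the 39 genes in replicates 1 to 4 was 3226, 6333, 3429 and 6358 CPM in OPA1+/- corneas at 3 months, against 5350, 6021, 6214 and 4779 CPM in OPA1+/+ corneas. At 6 months it was 5462, 6112, 7439 and 4906 CPM in OPA1+/-, against 5910, 5639 and 4631 CPM in OPA1+/+. At 3 months 2 OPA1+/- libraries lay below, and the other 2 above, every OPA1+/+ library, and at 6 months OPA1+/- replicate 3 was the highest of all 15 libraries.

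**Figure D2:**
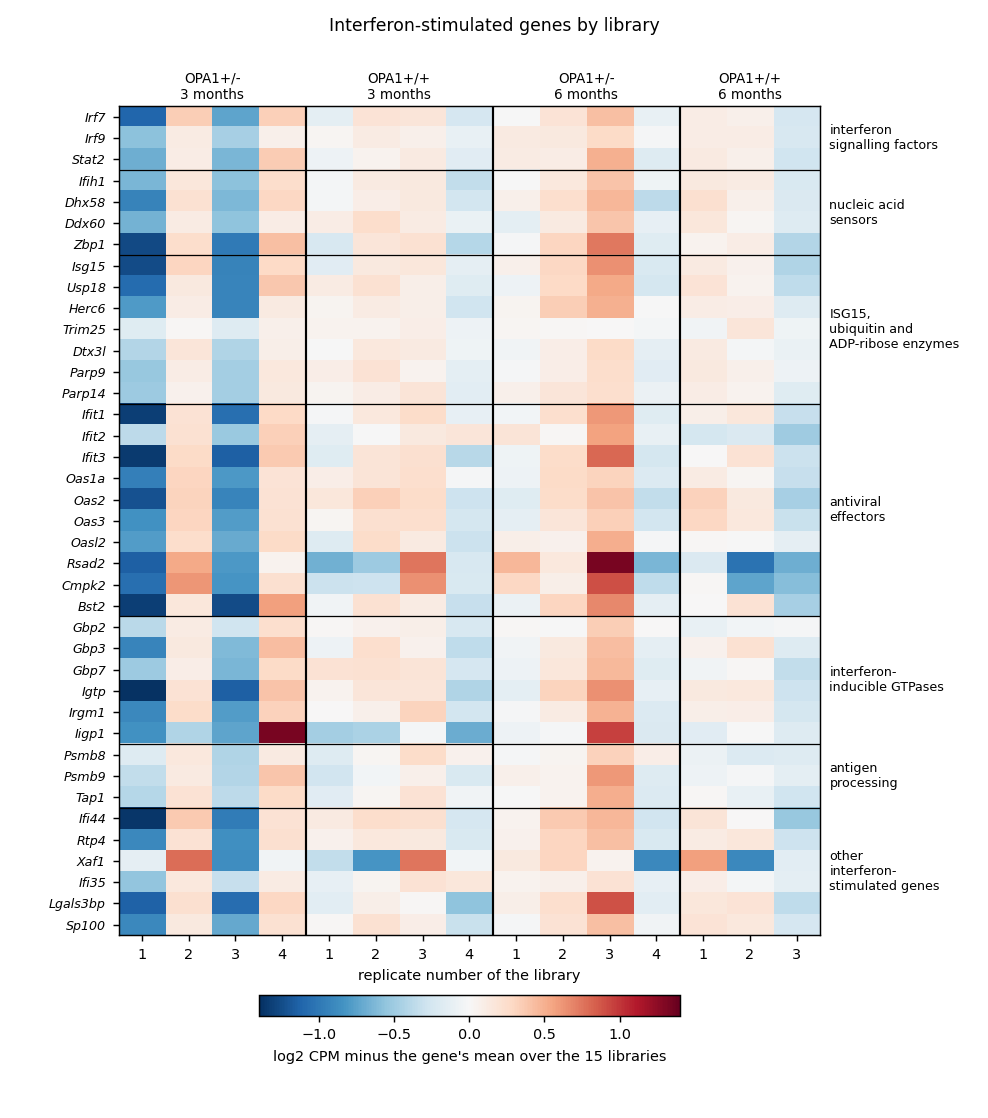
Each row is a gene, grouped by role, and each column a library. Colour is the log2 CPM of that library relative to the average of the gene over all 15: the columns of OPA1+/- replicates 1 and 3 at 3 months are below 0 for all 39 genes, with medians of -0.85 and -0.74, as is that of OPA1+/+ replicate 3 at 6 months with a median of -0.245, and that of OPA1+/- replicate 3 at 6 months is above 0 for all 39, with a median of 0.46.

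The ratio of the highest to the lowest library put a size on this. In OPA1+/- corneas at 3 months its median over the 39 genes was 2.21 (range 1.19 to 4.53). There 25 genes exceeded a ratio of 2, as did 5.59% of the 14383 tested genes with a mean of at least 1 CPM. In OPA1+/+ corneas at 3 months the median ratio was 1.34 and 2 genes exceeded 2, as did 6.71% of the 14383 genes. At 6 months it was 1.59 in OPA1+/-, where replicate 3 was the highest library for 37 genes (all but Trim25 and Xaf1), against 25.3% of the 15770 tested genes. In OPA1+/+ at 6 months it was 1.31, and replicate 3 of 3 was the lowest library for 34 genes, against 33.6% of the 15770. The median ratio over the 14383 genes was 1.19 in OPA1+/- and 1.23 in OPA1+/+ at 3 months, and 1.19 and 1.17 at 6 months. The biological coefficient of variation that edgeR estimated within groups had a median of 0.258 over the 39 genes, against 0.0861 over all tested genes, 4.88% of which lay above 0.258.

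Markers of immune cells were set beside this spread. All 10 leukocyte markers were detected, and their sum in replicates 1 to 4 was 67.9, 87.9, 69.9 and 76.3 CPM in 3-month OPA1+/- corneas. The OPA1+/+ corneas of that age held 82.1, 80.8, 81.6 and 69.8 CPM. The 6-month sums were 73.5, 82.7, 83.2 and 72.5 CPM for OPA1+/-, against 85.0, 76.4 and 66.0 CPM for OPA1+/+. Both 6-month groups had the library order of the summed listed genes. At 3 months the lowest libraries were the same as for those sums, replicates 1 and 3 of OPA1+/- and replicate 4 of OPA1+/+. The highest libraries at 3 months were not the same. The sum was carried by Itgam, Cd74 and Cd68, and its members differed in order. Within OPA1+/- at 3 months, replicates 1 and 3 were the lowest for Ptprc, Csf1r, Cd74 and Cd52 and not for the other 6 markers, with Itgam lowest in replicate 4. Ptprc, the pan-leukocyte marker CD45, had 3.05, 6.35, 1.96 and 4.55 CPM in that group. The 7 T and NK cell markers summed to 1.86, 3.52, 1.17 and 3.07 CPM in the 3-month OPA1+/- libraries, with 2.44 to 3.56 CPM for OPA1+/+ of the same age. At 6 months the sums were 1.28, 3.46, 2.30 and 2.74 CPM in OPA1+/-, against 3.47, 3.73 and 1.32 CPM in OPA1+/+. Cd3d and Nkg7 had 0 counts in 3 libraries each and Klrk1 in 6. Siglech, the defining marker of plasmacytoid dendritic cells, averaged 0.278 CPM, beside 92.7 CPM for Tcf4, 20.1 CPM for Bst2 (itself a listed gene) and 2.36 CPM for Irf8. These 4 markers summed to 107, 116, 112 and 131 CPM in the 3-month OPA1+/- libraries, with 105 to 120 CPM for OPA1+/+. Their 6-month sums spanned 111 to 128 CPM in OPA1+/- and 105 to 121 CPM in OPA1+/+. Of the neutrophil markers Retnlg had 0 counts in all 15 libraries, Ly6g in 11 and S100a8 in 8, while S100a9 was detected in all 15 with a mean of 1.06 CPM. The part of these cells in the spread was not tested.

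**Figure D3:**
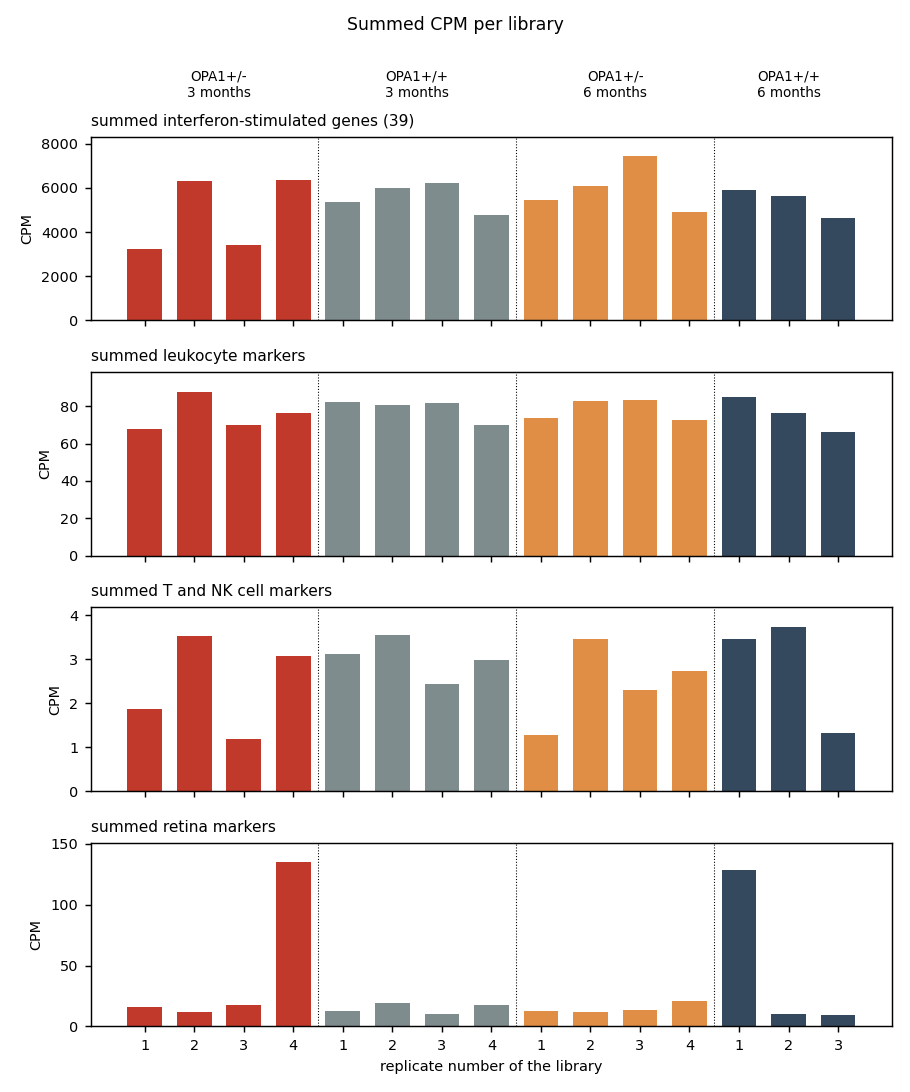
Summed CPM per library of the 39 interferon-stimulated genes and of the leukocyte, T and NK cell and retina markers, with all axes starting at 0. Summed interferon-stimulated genes were 3226 and 3429 CPM in OPA1+/- replicates 1 and 3 at 3 months and 4631 CPM or more elsewhere, while the retina markers stood out in OPA1+/- replicate 4 at 3 months and OPA1+/+ replicate 1 at 6 months.

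The 3 signalling factors of the list showed the pattern clearly. Irf7 had 109, 299, 141 and 297 CPM in OPA1+/- corneas at 3 months, against 214, 268, 264 and 199 CPM in OPA1+/+. At 6 months Irf7 had 235, 269, 315 and 219 CPM in OPA1+/-, against 253, 247 and 199.6 CPM in OPA1+/+. The OPA1+/- libraries at 3 months fell on both sides of the OPA1+/+ range, and the groups at 6 months overlapped. Irf9, the DNA-binding partner of STAT2, had 87.4, 141, 94.3 and 137 CPM in OPA1+/- at 3 months, against 133, 141, 137 and 122 CPM in OPA1+/+. At 6 months Irf9 had 142, 143, 158 and 129 CPM in OPA1+/-, against 139.8, 141 and 111 CPM in OPA1+/+. Replicates 1 and 3 of OPA1+/- at 3 months were again below the OPA1+/+ range, the other 2 were level with its upper libraries, and the ranges at 6 months overlapped. Stat2, its transactivating partner, spanned 85.1 to 175 CPM with the OPA1+/- genotype at 3 months, the OPA1+/+ span being 122 to 149 CPM.

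Among the sensors of viral RNA and DNA, Ddx60, a helicase, was the most abundant per length. Ddx60 had 269.6, 464, 289.6 and 459 CPM in OPA1+/- corneas at 3 months, against 458, 505, 464 and 399 CPM in OPA1+/+. At 6 months Ddx60 had 388, 466, 558 and 394 CPM in OPA1+/-, against 478, 436 and 375 CPM in OPA1+/+. At 3 months replicates 1 and 3 lay below the OPA1+/+ range and the other 2 within it. Ifih1, the helicase MDA5 that detects long double-stranded RNA, had 111, 193, 116 and 206 CPM in OPA1+/- at 3 months, against 169, 189, 191 and 136 CPM in OPA1+/+. At 6 months Ifih1 had 172, 192, 228 and 166 CPM in OPA1+/-, against 191, 187 and 149 CPM in OPA1+/+. The 3-month OPA1+/- values straddled the OPA1+/+ range, and the groups at 6 months overlapped. Zbp1, a sensor of Z-form nucleic acid, spread most of the 4 sensors, spanning 29.1 to 93.8 CPM with the OPA1+/- genotype at 3 months, where the OPA1+/+ span was 53.1 to 81.1 CPM.

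The ISG15, ubiquitin and ADP-ribose enzymes ranged, in their ratio of highest to lowest library in OPA1+/- at 3 months, from 1.19 for Trim25 to 2.94 for Isg15. Isg15 had 53.0, 156, 66.1 and 154 CPM in OPA1+/- corneas at 3 months, against 113, 139, 141 and 116 CPM in OPA1+/+. At 6 months Isg15 had 133, 155, 197 and 109 CPM in OPA1+/-, against 138, 132 and 94.6 CPM in OPA1+/+. No OPA1+/- library at 3 months was inside the OPA1+/+ range: 2 were below it and 2 above. Trim25, an E3 ligase that acts on the RNA sensor RIG-I, had 263, 300.0, 262 and 312 CPM in OPA1+/- at 3 months, against 308, 307, 317 and 283 CPM in OPA1+/+. At 6 months Trim25 had 302, 300.0, 297 and 292 CPM in OPA1+/-, against 288, 333 and 286 CPM in OPA1+/+. It varied least of the 39 genes, with a coefficient of variation of 0.0670, and its groups overlapped at both ages. Herc6, the E3 ligase that attaches ISG15 in mouse, had 50.1, 93.3, 45.7 and 94.8 CPM in OPA1+/- at 3 months, against 89.0, 93.8, 91.7 and 71.6 CPM in OPA1+/+. At 6 months Herc6 had 88.7, 110.5, 123 and 86.2 CPM in OPA1+/-, against 93.5, 92.8 and 76.3 CPM in OPA1+/+. Within OPA1+/-, the 2 high libraries at 3 months overlapped those at 6 months, and 13.7% of the Herc6 exon bases lie in another gene of the same strand. Parp14, an ADP-ribosyltransferase, had 197, 293, 202 and 307 CPM in OPA1+/- at 3 months, against 288, 301, 318 and 252 CPM in OPA1+/+. At 6 months Parp14 had 295, 314, 329.7 and 265 CPM in OPA1+/-, against 302, 290.2 and 249 CPM in OPA1+/+. Its groups overlapped at both ages.

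Among the antiviral effectors, that ratio ran from 1.81 for Ifit2 to 3.72 for Bst2, a membrane tether of budding viruses. Ifit3 had 102, 312, 117 and 333 CPM in OPA1+/- corneas at 3 months, against 229, 293, 301 and 197 CPM in OPA1+/+. At 6 months Ifit3 had 249, 308, 452 and 218 CPM in OPA1+/-, against 259, 298 and 209.9 CPM in OPA1+/+. Ifit3 shared 41.1% of the 75-base windows of its transcripts with its near copy Ifit3b, so reads could be split or lost between them and its level is uncertain. Ifit1 had 119, 343, 144 and 361 CPM in OPA1+/- at 3 months, against 295, 331, 355 and 276 CPM in OPA1+/+. At 6 months Ifit1 had 291, 351, 454 and 265 CPM in OPA1+/-, against 315, 334 and 238 CPM in OPA1+/+. For both genes OPA1+/- replicate 3 at 6 months was the highest of the 15 libraries. Ifit2 was highest in the same library but differed from them in how its groups lay at 6 months. Ifit2 had 24.8, 37.0, 22.2 and 40.3 CPM in OPA1+/- at 3 months, against 29.2, 31.8, 35.01 and 35.9 CPM in OPA1+/+. At 6 months Ifit2 had 36.2, 32.3, 47.3 and 29.6 CPM in OPA1+/-, against 26.9, 27.7 and 22.5 CPM in OPA1+/+. All 4 OPA1+/- libraries at 6 months were above all 3 OPA1+/+ libraries, which were also below all 4 OPA1+/+ libraries at 3 months. Rsad2, the enzyme viperin, had 28.2, 89.3, 35.6 and 64.04 CPM in OPA1+/- at 3 months, against 38.7, 43.6, 104 and 53.2 CPM in OPA1+/+. At 6 months Rsad2 had 85.6, 68.8, 156 and 39.7 CPM in OPA1+/-, against 53.7, 30.2 and 38.6 CPM in OPA1+/+. It had the largest coefficient of variation of the 39 genes, 0.469, and its groups overlapped. Cmpk2, a nucleotide kinase and its neighbour on chromosome 12, was likewise highest in OPA1+/+ replicate 3 at 3 months, at 78.4 CPM against 41.0 to 43.4 CPM in the rest of that group. Oas1a shared 47.6% of its windows with Oas1g, and its level is uncertain for the same reason.

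The interferon-inducible GTPases, which attack membranes around intracellular pathogens, had ratios from 1.53 for Gbp2 to 4.53 for Iigp1, the highest of the 39 genes. Gbp2 had 67.5, 94.7, 72.0 and 103 CPM in OPA1+/- corneas at 3 months, against 88.3, 91.3, 92.9 and 74.8 CPM in OPA1+/+. At 6 months Gbp2 had 88.6, 86.9, 111 and 87.7 CPM in OPA1+/-, against 81.4, 85.2 and 86.3 CPM in OPA1+/+. At 6 months the groups did not overlap, but the lowest OPA1+/- library was less than 1 CPM above the highest OPA1+/+ library. Irgm1 had 63.8, 143, 69.1 and 149 CPM in OPA1+/- at 3 months, against 120.0, 125, 148 and 99.7 CPM in OPA1+/+. At 6 months Irgm1 had 118, 129, 166 and 104 CPM in OPA1+/-, against 126, 127 and 101 CPM in OPA1+/+. Its groups overlapped at both ages. Iigp1 had 4.45, 5.97, 4.78 and 20.1 CPM in OPA1+/- at 3 months, against 5.74, 5.88, 7.87 and 4.94 CPM in OPA1+/+. At 6 months Iigp1 had 7.61, 7.92, 15.5 and 6.96 CPM in OPA1+/-, against 7.16, 7.99 and 7.07 CPM in OPA1+/+. Its high values sat in 1 OPA1+/- library at each age, and at 3 months that library was the 1 with the retina and lens transcripts.

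The antigen processing genes had ratios of 1.48 for Psmb8, 1.59 for Tap1 and 1.73 for Psmb9, all below the median of the list. Psmb8, an immunoproteasome subunit, had 59.0, 73.9, 49.8 and 72.4 CPM in OPA1+/- corneas at 3 months, against 58.9, 67.7, 79.8 and 69.4 CPM in OPA1+/+. At 6 months Psmb8 had 66.0, 68.3, 83.1 and 70.9 CPM in OPA1+/-, against 63.1, 58.3 and 58.7 CPM in OPA1+/+. The groups overlapped at 3 months, and at 6 months all 4 OPA1+/- libraries were above all 3 OPA1+/+ libraries. Tap1, a subunit of the peptide transporter, had 81.7, 124, 83.7 and 129.5 CPM in OPA1+/- at 3 months, against 96.8, 110.0, 124 and 104 CPM in OPA1+/+. At 6 months Tap1 had 107, 111, 153 and 94.1 CPM in OPA1+/-, against 109, 99.9 and 88.7 CPM in OPA1+/+. Its groups overlapped at both ages.

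Of the remaining genes, Ifi35 had 55.0, 89.4, 64.5 and 87.2 CPM in OPA1+/- corneas at 3 months, against 74.6, 82.6, 92.8 and 89.8 CPM in OPA1+/+. At 6 months Ifi35 had 83.7, 84.5, 92.9 and 74.5 CPM in OPA1+/-, against 86.3, 79.0 and 73.6 CPM in OPA1+/+. The 2 low libraries at 3 months were below the OPA1+/+ range and the other values overlapped. Rtp4 had 41.7, 89.7, 42.9 and 90.9 CPM in OPA1+/- at 3 months, against 81.1, 86.7, 85.6 and 67.5 CPM in OPA1+/+. At 6 months Rtp4 had 81.3, 96.2, 105 and 67.5 CPM in OPA1+/-, against 84.3, 87.0 and 63.7 CPM in OPA1+/+. Its 3-month OPA1+/- libraries straddled the OPA1+/+ range, and 13.9% of its exon bases lie in another gene of the same strand. Lgals3bp, a secreted glycoprotein that binds galectins, had 33.4, 85.3, 35.01 and 89.4 CPM in OPA1+/- at 3 months, against 66.0, 77.4, 74.0 and 49.7 CPM in OPA1+/+. At 6 months Lgals3bp had 77.3, 86.2, 136 and 66.3 CPM in OPA1+/-, against 81.5, 83.5 and 57.3 CPM in OPA1+/+. OPA1+/- replicate 3 at 6 months was its highest library, and the next highest was at 89.4 CPM.

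Between genotypes at 3 months, none of the 39 genes passed the test, at an adjusted p threshold of 0.05 in edgeR, and none had an unadjusted p under 0.05. DESeq2 and limma also called 0. Of all tested genes, 1 passed (0.00634%), and 9.03% had an unadjusted p under 0.05. The fitted log2 fold change was below 0 for 36 of the 39 genes and above 0 for Iigp1, Psmb9 and Xaf1, with a median of -0.20 against 0.003 over all tested genes. By role, it was below 0 for 3 of 3 signalling factors, 4 of 4 sensors, 7 of 7 ISG15, ubiquitin and ADP-ribose enzymes, 10 of 10 antiviral effectors, 5 of 6 GTPases, 2 of 3 antigen processing genes and 5 of 6 others. It was above 0 for 50.9% of all tested genes. The listed genes rose and fell together between libraries, so their signs are not separate observations. The smallest p-values belonged to Trim25 (-0.09 ± 0.06 SE, adjusted p = 0.677), Ddx60 (-0.30 ± 0.19, adjusted p = 0.691) and Parp14 (-0.21 ± 0.15, adjusted p = 0.719). No gene of the list was higher in every OPA1+/- than in every OPA1+/+ library (2.66% of all tested genes were), and none was lower in every one (1.95%). The median of the 39 genes moved to -0.03 when OPA1+/- replicate 1 was left out and to -0.06 when replicate 3 was. Leaving out replicate 2 gave -0.33, and leaving out replicate 4, the library with retina transcripts, gave -0.38. The standard error of these genes, 0.27 in the median on the log2 scale, exceeded the 0.10 of all tested genes, so differences of the size seen were not detectable with these libraries.

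Between genotypes at 6 months, none of the 39 genes passed in edgeR, DESeq2 or limma, and 51 of all tested genes passed in edgeR (0.323%). Ifit2 alone had an unadjusted p under 0.05, as did 10.2% of all tested genes. The fitted log2 fold change was above 0 for 36 of the 39 genes, Parp9 among them at 0.00, with Trim25, Oas3 and Xaf1 below 0, and its median was 0.17 against 0.002 over all tested genes. It was above 0 for 50.7% of all tested genes, and the signs of the listed genes are again not separate observations. Ifit2 had 0.50 ± 0.21 (adjusted p = 0.441), Rsad2 1.10 ± 0.55 (adjusted p = 0.533) and Psmb8 0.26 ± 0.13 (adjusted p = 0.534). Ifit2, Gbp2 and Psmb8 were higher in all 4 OPA1+/- libraries than in all 3 OPA1+/+ libraries, 3 of 39 genes, against 5.71% of all tested genes. The median of the list was 0.05 when OPA1+/- replicate 3 was left out and 0.06 when OPA1+/+ replicate 3 was, and leaving out OPA1+/- replicate 4 gave 0.26. Averaged over the 2 ages, 0 of 39 genes passed in any of the 3 tools, against 125 of all tested genes in edgeR (0.793%). None had an unadjusted p under 0.05, against 12.4% of all tested genes, and the median was -0.02, which turned to 0.06 and 0.05 without OPA1+/- replicate 1 or 3 at 3 months. The smallest p-values were those of Ifit2 (0.21 ± 0.14, adjusted p = 0.620), Trim25 (-0.06 ± 0.04, adjusted p = 0.665) and Iigp1 (0.47 ± 0.36, adjusted p = 0.671), and the Iigp1 value was 0.04 without OPA1+/- replicate 4 at 3 months.

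**Figure D4:**
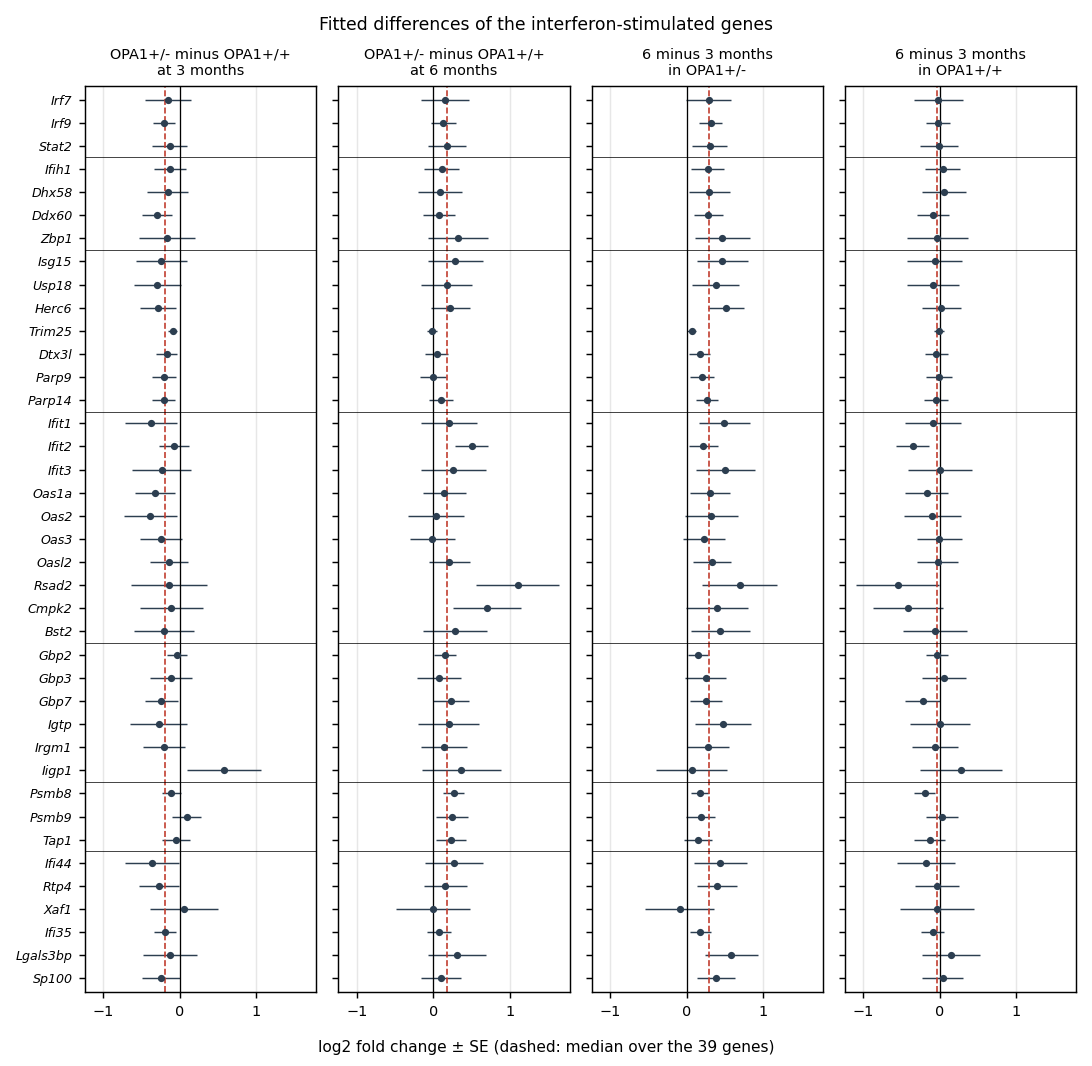
Log2 fold change and its SE for each of the 39 genes in 4 comparisons, ordered by role, with the median of the list as a dashed line. At 3 months 36 genes lie left of 0 in OPA1+/- against OPA1+/+ and at 6 months 36 lie right of 0, with no gene past the threshold in either. The 2 comparisons to OPA1+/- at 3 months share that group's libraries.

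With age, the fitted log2 fold change of OPA1+/- corneas (6 months over 3 months) was above 0 for 38 of the 39 genes, with a median of 0.30 and Xaf1 as the exception, and none passed in edgeR, DESeq2 or limma. Of all tested genes 13 passed (0.0824%), 49.8% had a value above 0, and 9.05% had an unadjusted p under 0.05. Of the 39 genes, Herc6 alone had an unadjusted p under 0.05. Herc6 had 0.52 ± 0.23 (adjusted p = 0.547), Irf9 0.31 ± 0.15 (adjusted p = 0.565) and Parp14 0.27 ± 0.15 (adjusted p = 0.626). This comparison uses the same 3-month OPA1+/- libraries as the genotype comparison above, and its median followed them. It was 0.15, 0.44, 0.17 and 0.51 when 3-month replicate 1, 2, 3 or 4 was left out, and 0.18 without 6-month replicate 3. In OPA1+/+ corneas 29 of the 39 genes had a value below 0 at 6 months against 3 months, with a median of -0.04 that turned to 0.05 without 6-month replicate 3, and none passed in the 3 tools, against 8 of all tested genes in edgeR (0.0507%). None had an unadjusted p under 0.05, against 10.2% of all tested genes, and 50.3% of all tested genes had a value above 0. Ifit2 had -0.36 ± 0.22 (adjusted p = 0.624), Psmb8 -0.20 ± 0.13 (adjusted p = 0.669) and Rsad2 -0.55 ± 0.55 (adjusted p = 0.794). Ifit2 was the only gene of the 39 lower in all 6-month than in all 3-month OPA1+/+ libraries, against 3.7% of all tested genes. Averaged over genotypes, 0 of 39 genes passed in any of the 3 tools, against 65 of all tested genes in edgeR (0.412%). None had an unadjusted p under 0.05, against 11.9% of all tested genes, and the median was 0.13, which was 0.04 and 0.06 without OPA1+/- replicate 1 or 3 at 3 months. Herc6 (0.27 ± 0.17, adjusted p = 0.578), Lgals3bp (0.37 ± 0.26, adjusted p = 0.620) and Irf9 (0.14 ± 0.11, adjusted p = 0.647) had the smallest p-values.

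The opposite signs of the genotype differences at 3 and 6 months were tested directly as an interaction, and no gene of the 39 passed in any of the 3 tools or had an unadjusted p under 0.05. Of all 15770 tested genes 0 passed in edgeR (0%), 6.91% had an unadjusted p under 0.05, and 49.4% had an interaction above 0. The interaction was above 0 for 37 of the 39 genes, with a median of 0.36 and a median SE of 0.39. The median was 0.22 without OPA1+/- replicate 1 at 3 months and 0.54 without replicate 4, the lowest and highest values when each library was left out. Psmb8 had 0.38 ± 0.18 (adjusted p = 0.740), Ifit2 0.58 ± 0.29 (adjusted p = 0.767) and Rsad2 1.25 ± 0.73 (adjusted p = 0.802).

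Although 30 of the 39 genes correlated above 0.9 with the mean profile of the other members within groups (Pearson's r over 15 libraries of log2 CPM minus the group mean), a few did not. Xaf1, a pro-apoptotic partner of XIAP, was the least alike with r = 0.46. It had 104, 196, 62.3 and 110.0 CPM in OPA1+/- corneas at 3 months, against 89.2, 64.3, 191 and 111 CPM in OPA1+/+. At 6 months Xaf1 had 124, 139.8, 118 and 60.9 CPM in OPA1+/-, against 169.8, 60.8 and 103 CPM in OPA1+/+. Its groups overlapped at both ages. In OPA1+/- replicate 4 at 3 months it lay below its mean over the 15 libraries, where the other 38 genes lay above theirs. Trim25 followed with r = 0.74, Iigp1 with 0.75, Rsad2 with 0.77 and Psmb8 with 0.78. The genes compared come from the same libraries and share their depth, and Xaf1 was singled out after its values were seen.

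Outside the list, 70 of 14293 other tested genes with a mean of at least 1 CPM had r above 0.9 with the same profile. The 10 most alike were Parp12 (r = 0.99, Spearman's rho = 0.98), Lgals9, Ifitm3, Ifit3b, Apol9a, Trim30a, Trafd1, Gm20559, Irgm2 and Ddx58 (r = 0.97, rho = 0.99). Parp12, an ADP-ribosyltransferase, had 110.0, 196, 126 and 192 CPM in OPA1+/- corneas at 3 months, against 168, 177, 198 and 166 CPM in OPA1+/+. Ifitm3, which blocks the entry of viruses through endosomes, had 28.3, 89.8, 33.6 and 85.3 CPM in the same OPA1+/- libraries, against 66.8, 69.5, 87.2 and 43.8 CPM in OPA1+/+. Both were low in replicates 1 and 3 of OPA1+/- at 3 months. Their choice by correlation with this profile made that order likely, so it is not a separate observation.

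The listed genes were then set beside the rest of the pathway, from ligand to target. Ifna1, Ifna2, Ifna4, Ifnk and Ifng had 0 counts in all 15 libraries, which allows up to 0.165 to 0.257 CPM per library (3 counts, counting error only). Ifnb1 had 29 counts over all libraries. Ifnl2, a type III interferon that acts on epithelia, had 0.598, 1.38, 2.19 and 0.823 CPM in OPA1+/- corneas at 3 months, against 0.675, 0.581, 0.708 and 1.45 CPM in OPA1+/+. At 6 months Ifnl2 had 0.301, 0.922, 0.359 and 1.41 CPM in OPA1+/-, against 0.377, 1.42 and 0.155 CPM in OPA1+/+. It summed to 177 counts in all, reads may be shared with its near copy Ifnl3, and its order of libraries did not follow that of the listed genes: within OPA1+/- at 3 months it was highest in replicate 3. Of the 6 receptor chains, Ifnar2 was the least even over the 15 libraries, from 3.89 to 7.54 CPM, and its ratio of highest to lowest library at 6 months was 1.73 in OPA1+/- and 1.94 in OPA1+/+. Ifnar1, the other chain of the type I receptor, spanned 36.6 to 43.1 CPM among 3-month OPA1+/- and 39.8 to 41.2 CPM among 3-month OPA1+/+ libraries. Its 6-month span was 37.0 to 40.7 CPM with OPA1+/-, beside 39.3 to 43.6 CPM with OPA1+/+. Ifnlr1, the specific chain of the type III receptor, spanned 31.7 to 38.0 CPM in OPA1+/- at 3 months, beside 30.9 to 40.6 CPM in OPA1+/+. Its 6-month span was 28.6 to 33.9 CPM in OPA1+/-, beside 35.1 to 37.9 CPM in OPA1+/+. The ranges at 6 months did not overlap for Ifnlr1, which was lower in every OPA1+/- library, as were 5.62% of all tested genes. Its difference did not pass (-0.21 ± 0.09, adjusted p = 0.408).

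Most kinases and transcription factors of the pathway spread less than the listed genes. In OPA1+/- at 3 months the median ratio of highest to lowest library was 1.13 for the 10 kinases and transcription factors and 1.19 for the 6 receptors, against 2.21 for the listed genes. Irf1, an early target of the type II interferon, stayed between 208 and 253 CPM in all 15 libraries, and Jak1 between 284 and 335 CPM. Of 47 tested interferon-stimulated genes outside the list, 43 had replicates 1 and 3 as the lowest OPA1+/- libraries at 3 months, with a median ratio of 1.89. Nlrc5, the transactivator of MHC class I genes, was among the most uneven, with 4.05, 13.5, 5.09 and 26.7 CPM in OPA1+/- at 3 months and 23.9, 16.2, 61.3 and 9.07 CPM at 6 months.

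**Figure D5:**
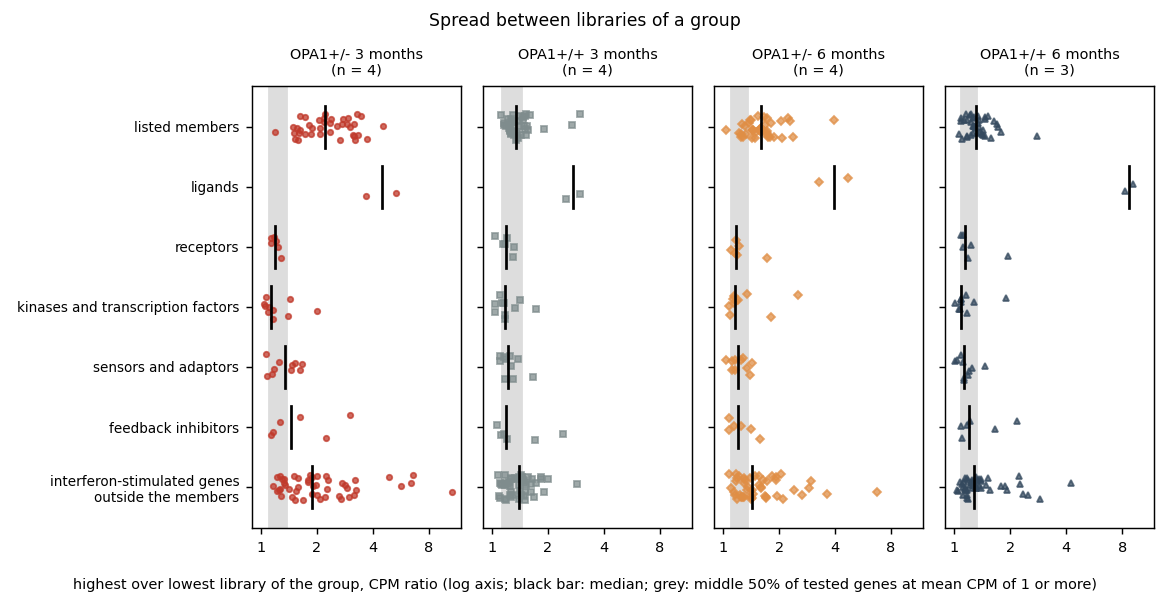
Ratio of the highest to the lowest library of each group (log axis) for the listed genes and for the other lists of the interferon pathway, 1 point per gene, with the median as a black bar and the middle 50% of tested genes with a mean of at least 1 CPM in grey. In OPA1+/- at 3 months the listed genes had a median of 2.21, the receptors 1.19 and the kinases and transcription factors 1.13.

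In the tests, 81 of the 95 pathway genes outside the list were measured highly enough. None passed between genotypes at 3 months, at 6 months or averaged, or in the interaction, in edgeR, DESeq2 or limma, with 3, 4, 5 and 1 at an unadjusted p under 0.05. The smallest p-values over the genotype comparisons belonged to Irf3, a transcription factor of the antiviral response (-0.15 ± 0.04 averaged over ages, adjusted p = 0.123), Cgas, the sensor of cytosolic DNA (0.30 ± 0.11, adjusted p = 0.224), and Ifitm2 (0.20 ± 0.07, adjusted p = 0.242). Gbp8, a guanylate-binding protein, was the 1 gene past the threshold in the age comparison averaged over genotypes. Gbp8 had 20.3, 27.9, 33.2 and 25.3 CPM at 6 months against 11.7, 15.5, 12.1 and 17.7 CPM at 3 months in OPA1+/-. In OPA1+/+ it had 26.0, 28.6 and 21.8 CPM at 6 months against 16.5, 20.1, 10.9 and 13.97 CPM at 3 months. The ages did not overlap in either genotype, and 2.9% of all tested genes in OPA1+/- and 4.44% in OPA1+/+ were likewise higher in every 6-month library. The averaged log2 fold change of Gbp8 was 0.81 ± 0.14 (adjusted p = 0.037). That call was lost when any of 10 libraries was left out, with adjusted p of up to 0.104 without OPA1+/+ replicate 2 at 6 months. It held only without OPA1+/- replicate 4 or OPA1+/+ replicate 2 or 3 at 3 months, or without replicate 1 of either genotype at 6 months.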

How the data were processed

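RNA-seq counts per gene in 15 mouse cornea libraries were used as deposited by the authors. Per the file headers, reads were counted with featureCounts 2.0.1 over exons of the GENCODE vM28 annotation on the reverse strand. The submitters' processing notes also name mm10 and DESeq2, with no aligner given in those sources. Since vM28 and mm10 differ in build, coordinates of genes are those in the files, and the RefSeq promoter windows carry their own build, GRCm38.p6. Per the labels' protocols, RNA was depleted of ribosomal RNA and sequenced as 75-base reads from a strand-preserving kit.

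Counts were scaled by the trimmed mean of M values and tested with edgeR 4.0.16 (R 4.3.3), by a quasi-likelihood fit of all 4 groups with 11 residual degrees of freedom, after its default filter on low counts left 15770 of 55357 genes. P-values were adjusted by Benjamini-Hochberg over all tested genes, for 7 comparisons, with a threshold of 0.05. DESeq2 1.42.0, limma 3.58.1, other filters, a replicate block and leaving out each library were alternatives. The fits were tested on simulated data. A TPM value used the gene length in the files. Symbols were found for 94.1% of identifiers.

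Library totals of 11673240 to 18194946 counts limit precision mainly for the lowest genes, and no pair of libraries within a group agreed within counting noise (chi-square per degree of freedom 3.27 to 10.1). Members and lists were chosen with earlier results of these data known. The genes named with values in every library were the 2 of each role with the highest mean TPM and the 3 with the smallest p in each comparison. Pathway genes were named where past the threshold, else the 3 with the smallest p over the genotype comparisons, with interferons and receptors by level, and the 10 outside genes most like the list by correlation. Stat2, Zbp1, Cmpk2, Xaf1, Bst2, Psmb9, Irf1, Jak1 and Nlrc5 were singled out after their values were seen. Deviations of same-numbered libraries from their group means had r of -0.139 to 0.232 over all genes and -0.604 to 0.899 over the listed genes, not above 0.1 in every pair, so numbers were not treated as pairs. Near-copies were checked as 75-base windows shared between GENCODE vM21 transcripts.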

Additional observations from a re-analysis of the deposited data

Results flagged for a closer look

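In groups of 4 libraries, 117 combinations of gene and group were examined for a library far from the other 3 (Dixon's criterion, 95% critical value), and 6 were found. Chance alone marks about 1 in 20. In OPA1+/- corneas, Iigp1 stood at 20.1 CPM in replicate 4 at 3 months, against 4.45 to 5.97 CPM in the rest of its group. That library also held the retina and lens transcripts, and their part in this value was not tested. At 6 months, replicate 3 held 3 of the 6: Oasl2 at 655 CPM against 458 to 488 CPM, Gbp2 at 111 CPM against 86.9 to 88.6 CPM, and Iigp1 at 15.5 CPM against 6.96 to 7.92 CPM. It was the library with the highest value for 37 of the 39 genes. In OPA1+/+ corneas at 3 months, Cmpk2 stood at 78.4 CPM in replicate 3 against 41.0 to 43.4 CPM, and Gbp7 was low in replicate 4, at 59.97 CPM against 80.5 to 82.3 CPM.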

How the results depend on the processing

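The count of interferon-stimulated genes past the threshold was 0 in all 7 comparisons under every alternative run, which included DESeq2, limma, other filters, each library left out and the replicate block. Same-numbered libraries share only a number, and with the replicate block the median log2 fold change of the list was -0.22 at 3 months and 0.16 at 6 months. The other pathway genes past the threshold changed with age only. In OPA1+/- corneas DESeq2 called 1 (Gbp8), against 0 in edgeR. In OPA1+/+ corneas DESeq2 called 2 (Ptpn1 and Gbp8), leaving out both libraries that hold retina transcripts called 2 (Ptpn1 and Ifitm1), and leaving out each library gave 0 to 2. Averaged over genotypes, where edgeR called 1, DESeq2 called 3 (Gbp4, Gbp8 and Cd274), the replicate block 0, the fit without the retina libraries 2 (Ifitm1 and Gbp8), and leaving out each library 0 to 2. A response element with 1 base less in either part of the motif was in 67.7% of the listed genes and 16.8% of all genes. Over all tested genes, leaving out each library moved the count past the threshold at 3 months from 1 to between 0 and 19, and at 6 months from 51 to between 2 and 84. Other settings gave 0 to 45 and 14 to 197. For genotype averaged over ages (125 in edgeR) the ranges were 16 to 237 and 19 to 314. For age they were 1 to 24 and 3 to 83 in OPA1+/- (13 in edgeR), 0 to 169 and 0 to 138 in OPA1+/+ (8), and 18 to 230 and 42 to 250 averaged (65). For the interaction (0) they were 0 to 10 and 0 to 21.

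The causes of these changes were not tested. The limit is the spread between libraries: with a median SE of 0.27 on the log2 scale at 3 months, the listed genes were less precisely measured than the typical gene, at 0.10. Removing either of OPA1+/- replicates 1 and 3 takes most of the 3-month median away, and removing replicate 3 of either genotype most of the 6-month median.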
